A study of Mus musculus with 6 samples.

Results

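Nuclear receptors are transcription factors, most of which bind small lipid-soluble ligands such as steroids, thyroid hormone, retinoic acid or oxysterols and act directly on the promoters and enhancers of their target genes. Many of them work as heterodimers with a retinoid X receptor, while others bind DNA alone or as homodimers, and several have no known natural ligand. In embryonic stem cells some of these orphan receptors are wired into the pluripotency network, and in the oligodendrocyte lineage thyroid hormone and retinoids are known for their part in the passage from progenitor to myelinating cell. The 45 genes described here were given as a list of mouse nuclear receptor genes by symbol, and all 45 were found among the 55450 genes counted in GENCODE vM21 on mm10.

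Cap analysis of gene expression (CAGE) sequences 1 short tag from each captured 5′ end of a capped RNA, so that a gene's tags count its starts and levels of different genes can be set side by side without scaling by length. Nuclear RNA was assayed from R08, a mouse embryonic stem cell line grown without feeders in serum and leukemia inhibitory factor (mESCs, 3 libraries), and from oli-neu, a neural line derived from mouse oligodendrocyte progenitor cells and kept in proliferation medium with triiodothyronine (T3), L-thyroxine, bFGF and PDGF-BB (mOPCs, 3 libraries). Both lines were untreated beyond these media, and each is 1 line, so that the comparison is between lines in different media. Tags starting within 500 bp of any annotated 5′ end of a gene on its strand were summed and scaled to the library total (CPM, counts per 1e6 library tags).

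Libraries held from 16657021 to 40928704 tags, of which 87.6 to 88.1% in mESCs and 80.3 to 80.8% in mOPCs started near an annotated 5′ end. The most used position took 0.508 to 0.667% of the tags of an mESC library and 5.38 to 5.92% of those of an mOPC library. The 8 embryonic stem cell markers summed to between 4071 and 4406 CPM in mESCs and 40.8 to 45.8 CPM in mOPCs, and the 8 oligodendrocyte progenitor markers to between 17.7 and 19.3 CPM and 1580 to 1676 CPM, respectively. Nkx2-2, one of the progenitor markers, had 0 CPM in mOPCs, and Pdgfra had 8.33 CPM there against 5.51 CPM in mESCs. Among other cell types, the 4 primitive endoderm markers summed to 29.6 to 35.7 CPM in mESCs against 0 to 0.0347 CPM, the 4 neuron markers to 14.5 to 17.3 CPM against 234 to 281 CPM (Syt1 and Map2, with Rbfox3 and Snap25 at 0 in mOPCs), the 5 fibroblast markers to 2.32 to 2.40 CPM against 83.8 to 87.2 CPM (mostly Postn, with Lum at 0), the 4 astrocyte markers to 46.7 to 50.7 CPM against 82.7 to 94.8 CPM (mostly Slc1a3, with Aqp4 at 0 in mOPCs), and the 3 microglia markers to at most 0.139 CPM in any library. The part of these in the results was not tested. In the labels the 3 libraries of each line carry the same library name, so that preparation and cell type cannot be told apart, and with bulk RNA neither can fewer expressing cells and less RNA per cell. The sources do not say that the libraries of a cell type came from separate cultures, and p-values therefore measure the spread between these libraries, which may be technical.

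The members of the family summed to 794.5, 788.6 and 790.2 CPM in the mESC libraries and to 882.5, 870.6 and 874.7 CPM in the mOPC libraries, or 791 ± 3.05 and 876 ± 6.00 CPM (SD, n = 3 each). The libraries did not overlap, and the 2-sided exact permutation test gave p = 0.1, the smallest that 3 libraries against 3 allow. At a mean of at least 1 CPM, 25 members were detected in mESCs and 29 in mOPCs, 21 of them in both. Nr0b1, Nr5a2, Esr2 and Hnf4a reached this level only in mESCs. Thrb, Vdr, Nr2e1, Nr2f1, Rorb, Rarb, Nr4a3 and Rxrg reached it only in mOPCs, although Rxrg stood just below it in mESCs at 0.937 CPM, and Nr2f2 just below it in mOPCs at 0.808 CPM. The other 12 members stayed under 1 CPM in both lines.

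The repertoires were led by different receptors. In mESCs the order of the means began with Nr0b1, Nr5a2, Nr1d2, Nr4a1 and Nr6a1, and these 5 members took 51.1% of the family's tags. In mOPCs it began with Nr1d2, Thra, Nr6a1, Nr2c1 and Rxrb, which took 45.6%. In the sums by subfamily, NR5A and NR6A receptors took 19.2% of the family's tags in mESCs and 7.65% in mOPCs, the receptors without a DNA-binding domain 12.2% and 0.00186%, and the retinoic acid receptors 10.0% and 3.09%. The thyroid hormone receptors took 1.295% in mESCs and 14.5% in mOPCs, the retinoid X receptors 4.35% and 10.4%, and the testicular receptors 7.43% and 11.9%.

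**Figure D1:**
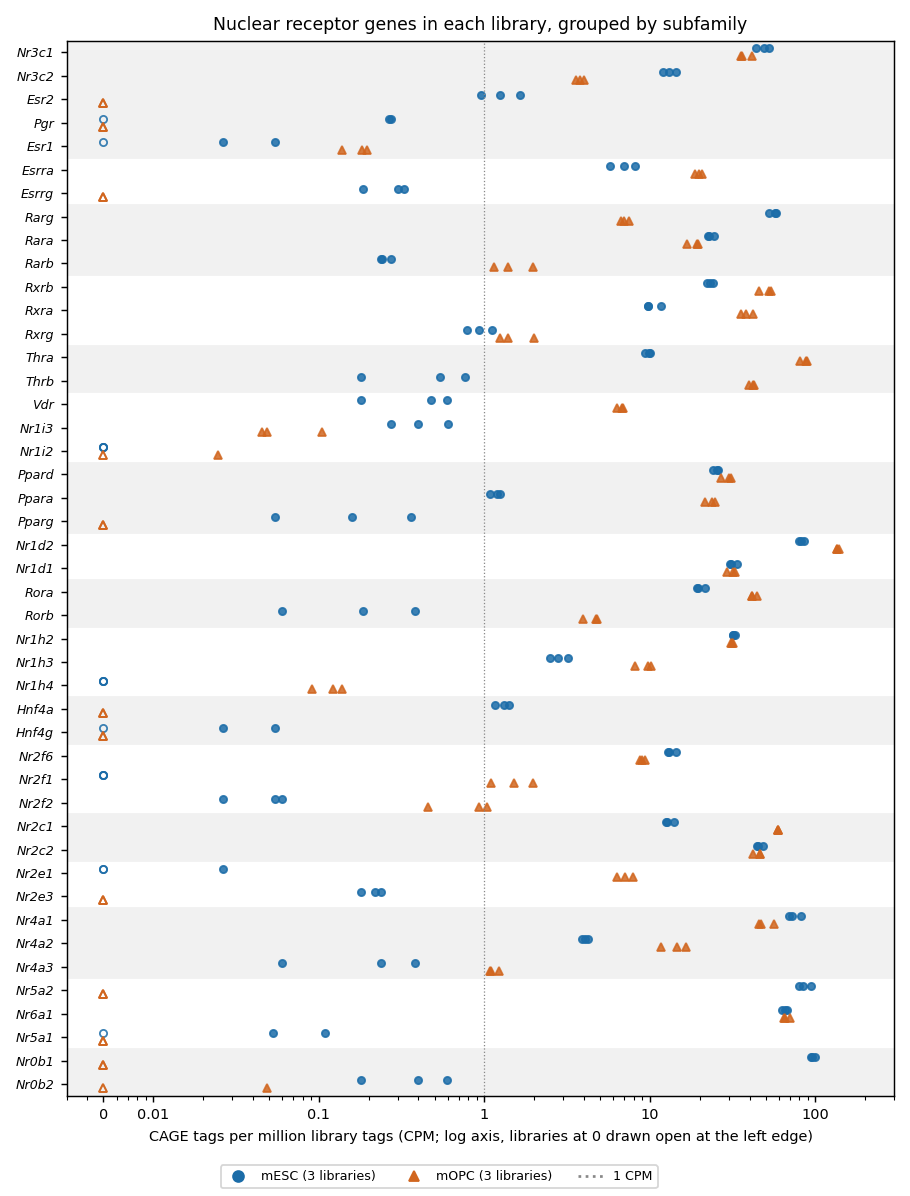
CAGE level of each of the 45 nuclear receptor genes in CPM on a log axis, with 1 point per library (circles, 3 mESC libraries; triangles, 3 mOPC libraries), open points at the left edge for libraries at 0, and shading that alternates between subfamilies. The 3 mESC libraries of Nr0b1 lie between 93.9 and 99.5 CPM with all mOPC libraries at 0, and the mOPC libraries of Thra between 80.3 and 88.5 CPM lie right of its mESC libraries at 9.37 to 10.0 CPM.

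Of the 45 members, 34 had enough tags to be tested with edgeR's quasi-likelihood test. With the Benjamini-Hochberg adjusted p under 0.05 over all 18490 genes tested, 19 members were higher and 10 lower in mOPCs, and 5 were not called. Among all genes tested, 42.1% were higher and 48.9% lower in mOPCs, so that a call alone says little in this comparison. The share of all genes whose libraries did not overlap between the lines is not given here. Lack of overlap in a gene is therefore a description only. Changes of at least 2-fold were called for 17 members upwards and 6 downwards, or 67.6% of those tested, against 67.0% of all genes tested. The median log2 fold change (mOPCs over mESCs) was 0.88 over the members tested and -0.19 over all genes tested. Between scalings of the libraries the latter ranged from -0.23 to -0.16.

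**Figure D2:**
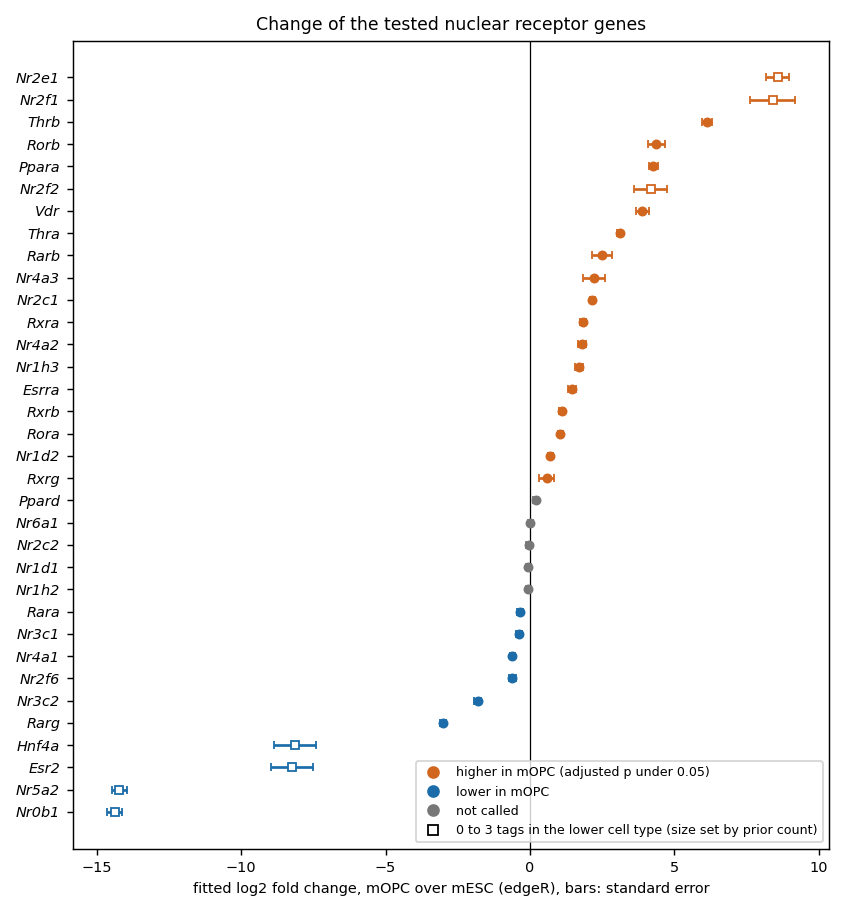
Fitted log2 fold change of the 34 tested members, mOPCs over mESCs, with the standard error as bars, coloured by call. Open squares mark members with 0 to 3 tags in the lower cell type, among them Nr0b1 at -14.38 and Nr2e1 at 8.57. Their fitted size, and with it the bar, depends on the prior count.

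Among the 5 leading receptors of mESCs were 3 orphan receptors known for their part in pluripotency or its loss, Nr0b1, Nr5a2 and Nr6a1. Nr0b1 (Dax1) encodes a receptor without the usual DNA-binding domain that acts on other receptors as a corepressor. It lies on chrX:86191764-86195947 and had 99.5, 93.9 and 95.02 CPM in the mESC libraries and 0 tags in all mOPC libraries, where 0 tags allow a level of up to 0.0327 CPM. Nr0b1 was thus at least 2968-fold higher in mESCs, from a floor of 3 tags over the pooled mOPC libraries. Nr5a2 (Lrh1), a receptor that binds DNA as a monomer and activates Pou5f1, lies on chr1:136842571-136960448 and had 79.5, 94.6 and 84.7 CPM in mESCs and 0 tags in mOPCs, at least 2576-fold less, and 121 and 0.0985 CPM in the gene body. Nr6a1 (GCNF), which represses Pou5f1 when embryonic stem cells differentiate, had 65.7, 62.7 and 67.7 CPM in mESCs and 64.6, 65.8 and 70.6 CPM in mOPCs. Its libraries overlapped and it was not called (log2 fold change 0.01 ± 0.08, SE, edgeR adjusted p = 0.89). With windows of 100 bp Nr6a1 was called lower in mOPCs, with a log2 fold change of -0.58, and with all tags in the gene body it was called higher (0.16, adjusted p = 0.0491). Its main starts lie at -128 bp in mESCs and -145 bp in mOPCs from the nearest annotated 5′ end, and their part in this was not tested.

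Nr0b1 and promoter P2 of Nr5a2 each started mainly at 1 position. P2 held a mean of 68.4% of the tags of Nr5a2 near annotated 5′ ends in mESCs. A further promoter, P3, held 30.6%, spread over 353 bp. The sequences at the main positions of Nr0b1 and of P2 of Nr5a2 are shown for these leading members of mESCs. They run from 50 bases upstream to 19 downstream of the position with the most tags, from RefSeq's promoter table on GRCm38.p6, 5′ to 3′, with that position and the base after it in capitals (chrX:86191724-86191793 on the plus strand and chr1:136953586-136953655 on the minus strand).
Nr0b1: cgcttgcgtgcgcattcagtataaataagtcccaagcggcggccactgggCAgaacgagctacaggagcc
Nr5a2: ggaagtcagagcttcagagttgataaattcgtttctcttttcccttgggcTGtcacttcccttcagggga
In Nr0b1 this position held 57.8 ± 2.91% (SD, n = 3) of the promoter's tags, and the middle 80% of tags, from the 10% to the 90% point, fell within 4 bp. In Nr5a2 it held 60.1 ± 0.902% of the tags of promoter P2, spread over 93 bp. Both pairs of capitals are a pyrimidine followed by a purine, the usual letters at a mammalian start. Over the 6167 RefSeq promoter windows with at least 500 tags at their main position, such a pair stood at the position and the base after it in 89.2%, and at the position and the base before it in 1.14%. The deposited positions therefore lay 1 base upstream of where this pair places the start, on both strands, and the cause was not tested. Sums over windows of 100 or 500 bp are hardly touched by 1 base.

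**Figure D3:**
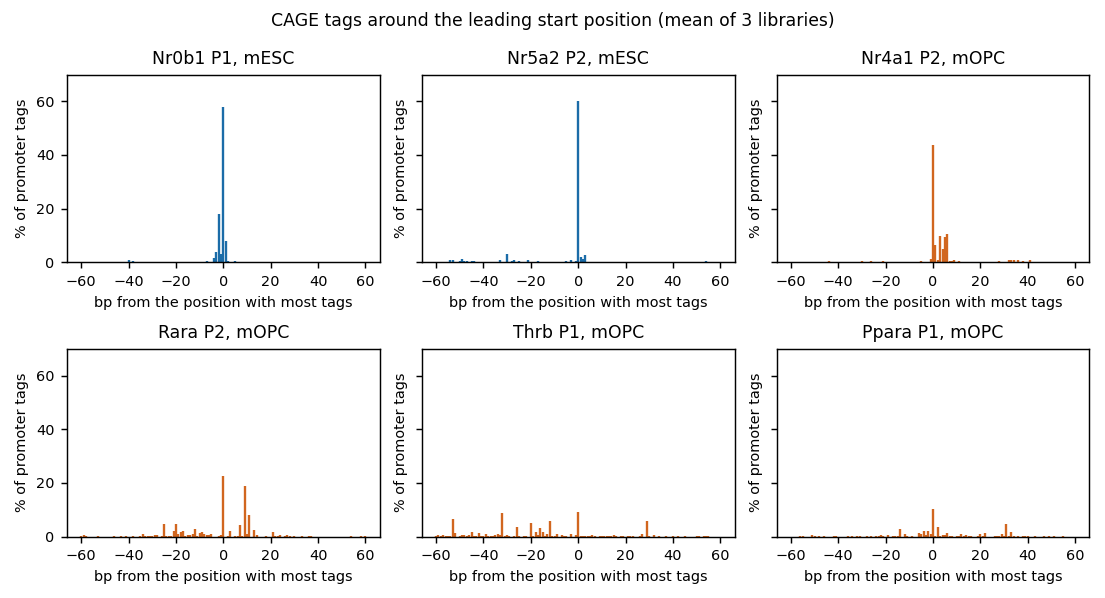
Share of a promoter's tags at each position from 60 bp upstream to 60 bp downstream of the position with the most tags (mean of 3 libraries) in 6 member promoters. The leading position holds 57.8% of the promoter's tags in Nr0b1 and 60.1% in P2 of Nr5a2, against 9.12% in Thrb and 10.5% in Ppara, where tags are spread over many positions.

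Esr2, the estrogen receptor beta, had 1.64, 0.961 and 1.25 CPM in mESCs and 0 tags in mOPCs (at least 42.3-fold less). In the gene body Esr2 had 1.87 CPM in mESCs and 0.168 CPM in mOPCs. Hnf4a, a receptor of liver and endoderm, had 1.16, 1.32 and 1.41 CPM in mESCs and 0 tags in mOPCs (at least 38.5-fold less), and 9.82 and 0.0804 CPM in the gene body. The 4 primitive endoderm markers, Gata4, Gata6, Sox17 and Sox7, had means of 2.29 to 10.9 CPM in mESCs and at most 0.0197 CPM in mOPCs, and their part in the Hnf4a and Nr5a2 levels was not tested. Hnf4g, the other HNF4 receptor, had 2 tags in mESCs and 0 in mOPCs and was not tested.

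The thyroid hormone receptors showed the opposite pattern. Thra encodes the receptor found in most tissues, and Thrb the one with more restricted expression. Thra (chr11:98740638-98769006) had 9.84, 9.37 and 10.0 CPM in mESCs and 88.5, 80.3 and 88.1 CPM in mOPCs. It was 8.60-fold higher in mOPCs (log2 fold change 3.11 ± 0.10, edgeR adjusted p = 2.51e-35), and 2.50 on the log2 scale when all tags in the gene body were counted. Thrb (chr14:17660261-18038090) had 0.765, 0.180 and 0.543 CPM in mESCs and 39.7, 42.1 and 42.3 CPM in mOPCs, a 70.6-fold difference (log2 fold change 6.14 ± 0.17, adjusted p = 2.27e-36). Without mESC library 1, which held most of the mESC tags of Thrb, the log2 fold change was 6.77. No library of either gene overlapped between the lines, and the sum of both was 10.2 ± 0.61 CPM in mESCs and 127 ± 4.10 CPM in mOPCs. In mOPCs Thra stood above Thrb in every library.

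The retinoic acid receptors moved in different directions. Rarg (chr15:102234938-102257517), the form most abundant in mESCs, had 57.7, 57.2 and 52.4 CPM there and 6.70, 6.97 and 7.53 CPM in mOPCs, and fell by 3.00 ± 0.10 on the log2 scale (edgeR adjusted p = 8.25e-34). When all tags in the gene body were counted, it fell by 1.204 on that scale, and in mOPCs 23.4 of the gene's 30.5 CPM lay away from the annotated 5′ ends, against 11.5 of 64.7 CPM in mESCs. Rara had 22.6, 22.4 and 24.4 CPM in mESCs and 16.7, 19.6 and 19.3 CPM in mOPCs. Its libraries did not overlap and it was called lower (log2 fold change -0.34 ± 0.10, adjusted p = 0.00162), but the call was lost without the filter on low counts (adjusted p = 0.0901), and the direction turned with all tags in the gene body (0.07, adjusted p = 0.45). Rarb had 0.238, 0.240 and 0.271 CPM in mESCs and 1.96, 1.39 and 1.15 CPM in mOPCs and rose by 2.50 ± 0.35 on the log2 scale (adjusted p = 3.31e-09), or by 4.74 with all tags in the gene body. In the gene body of Rarb, 18.8 of 20.3 CPM in mOPCs lay away from the annotated 5′ ends, against 0.445 of 0.695 CPM in mESCs. At the annotated 5′ ends Rarg was the first of the 3 in mESCs and Rara in mOPCs, where the Rara libraries all lay above those of Rarg.

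The retinoid X receptors are partners of the retinoic acid, thyroid hormone, vitamin D, PPAR and liver X receptors. Rxrb and Rxra were higher in mOPCs, while the direction of Rxrg depended on the setting. Rxrb had 24.1, 23.1 and 22.2 CPM in mESCs and 54.2, 52.3 and 45.5 CPM in mOPCs (log2 fold change 1.10 ± 0.09, edgeR adjusted p = 3.07e-16). Rxra had 11.6, 9.73 and 9.77 CPM in mESCs and 35.8, 38.0 and 41.9 CPM in mOPCs (1.85 ± 0.11, adjusted p = 2.05e-23). In both genes every mOPC library lay above every mESC library. Rxrg was low in both, with 1.11, 0.780 and 0.923 CPM in mESCs and 2.01, 1.39 and 1.25 CPM in mOPCs (0.59 ± 0.26, adjusted p = 0.0303). This last call was lost with DESeq2 (adjusted p = 0.0835) and without mESC library 2 (adjusted p = 0.107), mESC library 3 (0.0706) or mOPC library 1 (0.132). The log2 fold change of Rxrg turned to -0.88 with windows of 100 bp (edgeR adjusted p = 0.00964) and to -1.91 with tags in the gene body (adjusted p = 9.17e-06). In both settings Rxrg was called lower in mOPCs. Of the tags of Rxrg, 97.0% in mOPCs and 43.1% in mESCs lay upstream of the annotated gene start.

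Among the receptors for fatty acids, sterols and vitamin D, Ppara, a regulator of fatty acid oxidation, stood out. It had 1.19, 1.08 and 1.25 CPM in mESCs and 23.8, 24.6 and 21.6 CPM in mOPCs, 19.3-fold more (log2 fold change 4.27 ± 0.15, edgeR adjusted p = 9.37e-33). Ppard had 25.9, 24.1 and 25.3 CPM in mESCs and 31.0, 30.1 and 27.05 CPM in mOPCs, and was not called although the libraries did not overlap (0.19 ± 0.09, adjusted p = 0.051), but was called with all tags in the gene body (0.65). Pparg, the receptor of fat cells, had 13 tags in mESCs and 0 in mOPCs and was not tested. Vdr, the vitamin D receptor, had 0.475, 0.180 and 0.597 CPM in mESCs and 6.29, 6.80 and 6.89 CPM in mOPCs (3.89 ± 0.23, adjusted p = 6.84e-23, and 3.03 in the gene body). Of the liver X receptors, which sense oxysterols, Nr1h2 (LXRβ) had 32.6, 31.6 and 31.96 CPM in mESCs and 31.3, 31.1 and 31.7 CPM in mOPCs and was not called (-0.06 ± 0.09, adjusted p = 0.55). Nr1h3 (LXRα) had 2.80, 3.18 and 2.50 CPM in mESCs and 10.1, 8.11 and 9.77 CPM in mOPCs and rose by 1.70 ± 0.15 on the log2 scale (adjusted p = 2.33e-15), or by 3.12 with windows of 100 bp. Of its tags, 82.9% in mESCs and 98.0% in mOPCs also lay in the window of Gm13783, a noncoding gene on the same strand, and the change of Nr1h3 cannot be told apart from that gene's. The bile acid receptor Nr1h4 and the xenobiotic receptors Nr1i2 and Nr1i3 had means of at most 0.423 CPM in either line and were not tested.

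The receptors of the circadian clock took a large part of the family's tags in both lines. Nr1d1 and Nr1d2 encode REV-ERBα and β, repressors of Arntl, and the RORs activate through the same sites. Nr1d2 (chr14:18204054-18239127) had 79.9, 85.4 and 81.8 CPM in mESCs and 135, 135 and 139 CPM in mOPCs, where it was the highest member, and rose by 0.71 ± 0.08 on the log2 scale (edgeR adjusted p = 1.22e-11). Nr1d1 had 33.7, 30.5 and 30.8 CPM in mESCs and 32.6, 29.2 and 31.8 CPM in mOPCs and was not called (-0.05 ± 0.09, adjusted p = 0.61). Rora had 19.3, 19.5 and 21.4 CPM in mESCs and 44.3, 41.3 and 41.2 CPM in mOPCs (1.05 ± 0.09, adjusted p = 1.63e-15, and 1.65 with windows of 100 bp). Rorb, a ROR of neural tissue, had 0.185, 0.0600 and 0.380 CPM in mESCs and 4.74, 4.79 and 3.93 CPM in mOPCs (4.37 ± 0.29, adjusted p = 1.75e-20, and 5.21 in the gene body). Nr1d2, Rora and Rorb did not overlap between the lines, whereas Nr1d1 did.

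Of the steroid receptors, the glucocorticoid receptor gene Nr3c1 was the main one in both lines. It had 44.1, 52.2 and 48.7 CPM in mESCs and 35.4, 41.6 and 35.8 CPM in mOPCs, without overlap, and was called lower in mOPCs (log2 fold change -0.38 ± 0.09, edgeR adjusted p = 0.000114). With all tags in the gene body the log2 fold change was -0.0065 (adjusted p = 0.94), and the call was lost. Nr3c2, the mineralocorticoid receptor gene, had 12.0, 13.1 and 14.4 CPM in mESCs and 4.01, 3.78 and 3.59 CPM in mOPCs and fell by 1.81 ± 0.13 on the log2 scale (adjusted p = 1.45e-18). Esr1, the estrogen receptor alpha gene, had 2 tags in mESCs and 16 in mOPCs, and Pgr, the progesterone receptor gene, 15 and 0. Neither was tested. Of the estrogen-related receptors, which have no known estrogen ligand and act on mitochondrial genes, Esrra had 8.13, 5.70 and 6.95 CPM in mESCs and 19.9, 18.8 and 20.7 CPM in mOPCs (1.46 ± 0.12, adjusted p = 2.34e-16). Esrrg had 18 tags in mESCs and 0 in mOPCs and was not tested.

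The NR4A receptors, immediate early genes whose ligand pocket is filled by side chains, did not move together. Nr4a1 (chr15:101254269-101274795) had 81.7, 69.2 and 72.0 CPM in mESCs and 56.5, 45.8 and 47.2 CPM in mOPCs and was lower in mOPCs (log2 fold change -0.61 ± 0.09, edgeR adjusted p = 3.83e-08). Nr4a2 (Nurr1) had 4.04, 3.90 and 4.23 CPM in mESCs and 11.7, 14.6 and 16.5 CPM in mOPCs and was higher (1.797 ± 0.14, adjusted p = 8.60e-18), by 3.11 with windows of 100 bp and by 3.71 in the gene body. Both alternatives leave out many of its starts. Of its tags, 81.4% in mESCs and 46.2% in mOPCs lay upstream of the annotated gene start. Windows of 100 bp kept 44 of 296 tags in mESCs and 481 of 1353 in mOPCs. Nr4a3 had 0.238, 0.0600 and 0.380 CPM in mESCs and 1.23, 1.07 and 1.10 CPM in mOPCs (2.22 ± 0.37, adjusted p = 2.15e-07). The libraries of the lines did not overlap in any of the 3.

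Of the remaining orphan receptors, Nr2e1 (Tlx), a factor of neural stem cells, had 0.0264 CPM from 1 tag in mESC library 1, 0 tags in the other mESC libraries, and 7.07, 7.94 and 6.30 CPM in mOPCs. The pooled ratio was 511, with an exact binomial 95% interval of 91.4 to 20212 that covers counting error only. The related photoreceptor gene Nr2e3 had 16 tags in mESCs and 0 in mOPCs and was not tested. The COUP-TF genes diverged, in that Nr2f6 had 14.4, 13.03 and 12.9 CPM in mESCs and 9.30, 8.91 and 8.77 CPM in mOPCs and was called lower (log2 fold change -0.62 ± 0.12, edgeR adjusted p = 4.28e-06), a call lost with windows of 100 bp (-0.08, adjusted p = 0.57). Nr2f1 had 0 tags in mESCs and 1.09, 1.98 and 1.51 CPM in mOPCs, at least 37.9-fold more, and 0.102 and 4.23 CPM in the gene body. Nr2f2 had 3 tags in all mESC libraries and 0.456, 1.04 and 0.928 CPM in mOPCs, a pooled ratio of 20.7 (95% interval 6.82 to 103). The testicular receptors also differed from each other. Nr2c1 had 12.5, 12.6 and 14.1 CPM in mESCs and 59.2, 59.4 and 59.4 CPM in mOPCs and rose by 2.17 ± 0.10 on the log2 scale (adjusted p = 1.34e-28), or by 2.96 in the gene body, with 96.5% of its mESC tags and 86.8% of its mOPC tags upstream of the annotated gene start. Its partner Nr2c2 had 44.3, 44.97 and 48.0 CPM in mESCs and 46.6, 46.5 and 41.9 CPM in mOPCs and was not called (-0.05 ± 0.09, adjusted p = 0.60). Nr5a1, the steroidogenic factor gene, had 4 tags in mESCs and 0 in mOPCs, and Nr0b2, a relative of Nr0b1, 29 tags in mESCs and 2 in mOPCs. Neither was tested.

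Starts of several members that changed most in mOPCs are shown in the same frame, for Thrb (chr14:17660894-17660963, plus strand), Nr2e1 (chr10:42583593-42583662, minus strand) and Ppara (chr15:85735555-85735624, plus strand).
Thrb: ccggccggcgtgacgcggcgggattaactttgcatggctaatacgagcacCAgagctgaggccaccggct
Nr2e1: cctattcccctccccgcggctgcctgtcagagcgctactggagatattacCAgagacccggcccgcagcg
Ppara: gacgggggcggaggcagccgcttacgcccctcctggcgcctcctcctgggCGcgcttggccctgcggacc
The main position held 9.12 ± 1.54% of the tags of Thrb, 14.5 ± 2.95% of those of Nr2e1 and 10.5 ± 1.17% of those of Ppara in mOPCs, with the middle 80% of tags spread over 92, 123 and 281 bp. In each of the 3 the main position held a smaller share than in Nr0b1 and P2 of Nr5a2, as a description of 5 promoters. The spread of Thrb was close to the 93 bp of P2 of Nr5a2.

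Members of the family lie near each other on several chromosomes, in some cases with the same direction of change and in others not. On chromosome 11, Thra and Nr1d1 overlap by 1075 bp on opposite strands, which CAGE tags keep apart, and Thra was called higher while Nr1d1 was not called. Rara, 152484 bp from Nr1d1, was called lower. On chromosome 14, Rarb, Thrb and Nr1d2, with gaps of 841104 and 165963 bp, were all higher in mOPCs. On chromosome 15, Nr4a1 and Rarg, 960142 bp apart, were both lower. On chromosome 2, Nr5a1 and Nr6a1 lie 8827 bp apart. Nr5a1 was not tested and Nr6a1 was not called. Among all genes tested, 42.1% were higher and 48.9% lower in mOPCs, so that a direction shared by neighbours says little here.

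The use of alternative promoters was compared next. Annotated 5′ ends of a gene whose 500 bp windows touched were joined into 1 promoter, numbered P1, P2 and so on from 5′ to 3′. Shares are of the gene's tags within these windows, and tags elsewhere in the gene are left out. The test of edgeR for a promoter that changes otherwise than the rest of its gene (diffSpliceDGE) covered 8555 promoters of 3378 genes, and 48.6% of the promoters were called at an adjusted p under 0.05. Of the members, 26 promoters of 10 genes were tested, and 15 promoters of 8 genes were called: Rara, Rarg, Thra, Nr4a1, Nr4a2, Nr2c2, Rora and Rxra. Nr3c1 was not called, and the 3 promoters of Nr5a2 among the 26 could not show a difference, with 0 tags in mOPCs. By the description used here, 11 members had at least 2 promoters with 10% or more of the gene's tags in a line where the gene reached 1 CPM. In 14 of their 18 such promoters, counted where the gene reached 1 CPM in both lines, the mean share differed by at least 10 percentage points. With positions in the windows of 1 gene only, the count was 12. Each of the 11 members had 2 such promoters with nearly complementary shares, so that 1 shift mostly counts at both. The same count over all genes with several promoters was not made, and 14 of 18 is a description only.

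**Figure D4:**
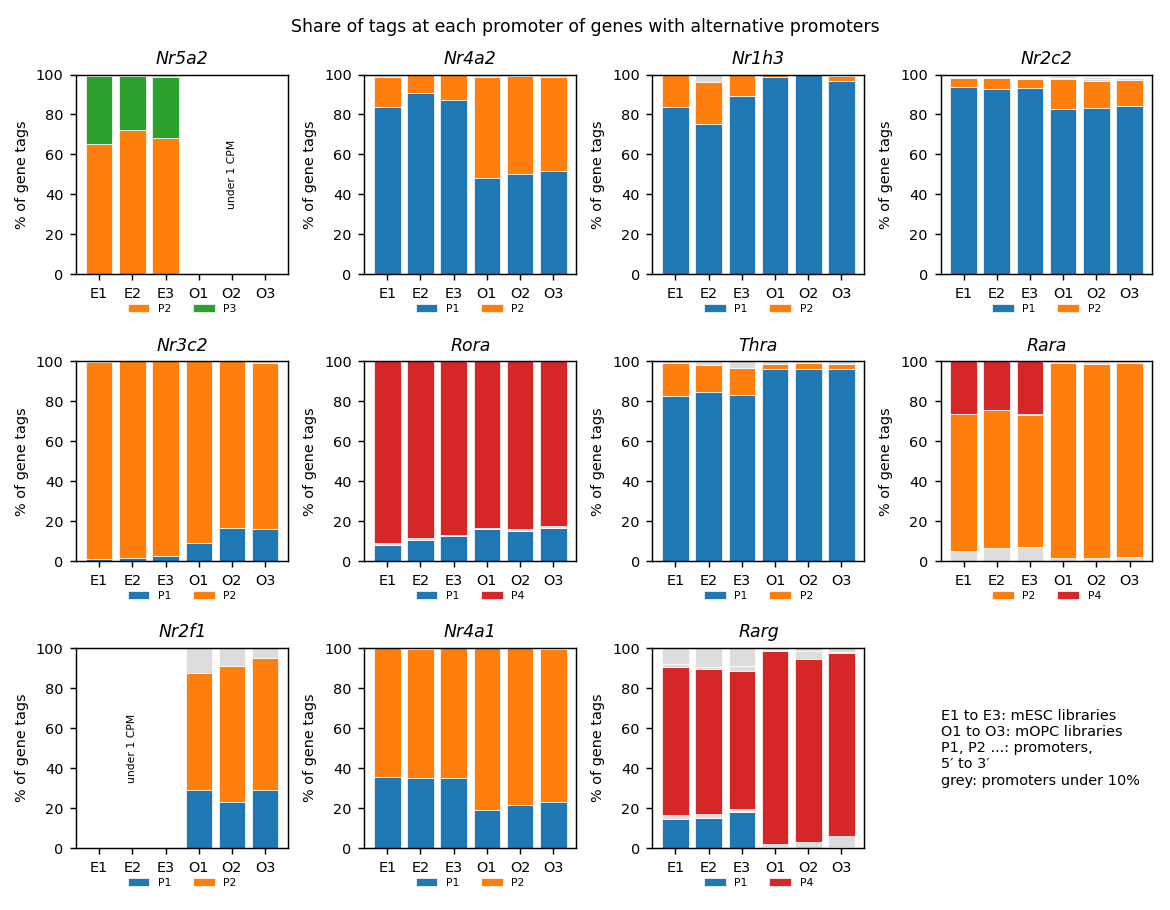
Share of a gene's tags at each of its promoters in every library (E1 to E3, mESCs; O1 to O3, mOPCs) for the 11 members with alternative promoters, with promoters under 10% in grey and lines under 1 CPM left blank. P4 of Rara holds 24.1 to 26.4% in mESC libraries and at most 0.273% in mOPC libraries, and P2 of Nr4a2 rises from 9.23 to 15.0% to between 47.5 and 50.8%.

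Among the retinoic acid receptors, whose isoforms come from separate promoters, mESCs used promoters that mOPCs hardly did. P4 of Rara (chr11:98959912-98960912, transcript Rara-202) held 26.1, 24.1 and 26.4% of the gene's tags in mESCs and 0.273, 0.177 and 0.253% in mOPCs (usage log2 fold change -4.58 relative to the gene, edgeR adjusted p = 8.70e-33). P2 of Rara, 22399 bp upstream, held 68.5, 69.2 and 66.4% in mESCs and 97.5, 97.0 and 97.1% in mOPCs, and its level was 15.7 ± 0.42 and 18.01 ± 1.5 CPM. In levels, P4 of Rara was at 5.92 ± 0.53 CPM in mESCs and 0.0431 ± 0.0074 CPM in mOPCs. These shares cover tags near annotated 5′ ends only. In the gene body of Rara, 12.9 of 35.6 CPM in mESCs and 22.1 of 40.5 CPM in mOPCs lay away from them. P1 of Rarg (chr15:102256849-102258017) held 14.4, 14.8 and 18.2% in mESCs and 0.680, 0 and 0.325% in mOPCs (usage -3.73, adjusted p = 1.67e-18), while P4, with transcript Rarg-202, held 74.3, 72.7 and 69.3% and 96.6, 91.5 and 91.6%. P1 of Rarg rested on 2 tags in mOPCs, and its mESC share was 29.1% with windows of 100 bp. The stretch shown for Rara P2 (chr11:98937658-98937727 in mESCs and chr11:98937649-98937718 in mOPCs, plus strand) spans both main positions, which lie 9 bp apart.
Rara P2 in mESCs: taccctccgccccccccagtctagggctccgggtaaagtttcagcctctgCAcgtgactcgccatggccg
Rara P2 in mOPCs: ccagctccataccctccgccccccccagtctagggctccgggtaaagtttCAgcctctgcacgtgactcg
Rarg P4 in mOPCs: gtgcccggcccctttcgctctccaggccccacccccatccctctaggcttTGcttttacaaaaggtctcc
The mESC position of Rara P2 held 20.5 ± 2.82% of its tags in mESCs and the mOPC position 22.7 ± 2.10% in mOPCs. The Rarg sequence is chr15:102246472-102246541 on the minus strand, and its main position held 15.9 ± 5.27% of tags.

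Rarb, too low in mESCs for the description above, was looked at after its values were seen. Its P1 had 0 tags in mESCs and 120 in mOPCs, and its P2, which lies downstream, 18 in mESCs and 10 in mOPCs. With 18 tags at its annotated 5′ ends, 0 tags at P1 allow a share of up to 16.7% in mESCs. Most tags of the Rarb gene body in mOPCs lay at neither promoter, as given above. P2 is the promoter where textbook accounts place the retinoic acid response element of Rarb, a direct repeat spaced by 5 bases. RefSeq's window there holds it, as shown in the sequence below (chr14:16575453-16575588, minus strand). Capitals mark the element without its first base (chr14:16575513-16575528), and the g printed just before them belongs to the first copy of the repeat.
Rarb P2: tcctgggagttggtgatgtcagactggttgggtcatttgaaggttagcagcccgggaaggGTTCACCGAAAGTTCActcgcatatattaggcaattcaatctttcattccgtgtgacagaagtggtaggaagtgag
The element ends 50 bp upstream of the main start of mESCs, a position that held only 2 of the 18 tags. Letters of the form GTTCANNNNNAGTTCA, on either strand, were found in 1 of 61 member windows and in 11 of all 32851 windows (0.0335%). The form is the Rarb element itself without its first base and with its 5 middle bases left free. The 1 match among members was therefore fixed in advance, and no comparison is drawn from it. The hexamer AGGTCA, the core that most receptors bind, stood on either strand in 12 of 61 member windows (19.7%) and in 16.3% of all windows, among them those of Nr0b1, Nr5a2, Nr6a1, Nr1d2, Rara, Rarg, Rxra and Thrb. TCAAGGTCA, the longer form bound by NR5A and estrogen-related receptors, which contains AGGTCA, stood in 0 member windows and in 0.423% of all. These are matches of letters, not sites shown to be bound.

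In the NR4A genes both members with alternative promoters shifted. P2 of Nr4a2 held 15.0, 9.23 and 12.8% of tags in mESCs and 50.8, 48.9 and 47.5% in mOPCs (usage log2 fold change 1.32, edgeR adjusted p = 5.81e-11), or means of 31.4 and 44.9% with windows of 100 bp. In levels, P1 of Nr4a2 was at 3.54 ± 0.16 and 7.15 ± 1.5 CPM, and P2 at 0.503 ± 0.13 and 6.97 ± 0.97 CPM. P1 of Nr4a1 held 35.4, 35.2 and 35.0% in mESCs and 19.1, 21.4 and 23.2% in mOPCs (usage -0.51, adjusted p = 2.76e-08). Its P2, 12577 bp downstream, kept the larger share in both lines and started at the annotated 5′ end itself. The main starts of Nr4a1 P2 (chr15:101266796-101266865, plus strand) and Nr4a2 P1 (chr2:57124122-57124191, minus strand) were the same in both lines.
Nr4a1 P2: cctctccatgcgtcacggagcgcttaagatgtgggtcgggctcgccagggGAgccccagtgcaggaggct
Nr4a2 P1: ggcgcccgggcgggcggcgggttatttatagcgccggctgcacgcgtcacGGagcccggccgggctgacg
In Nr4a1 the position held 35.3 ± 3.30% of P2's tags in mESCs and 43.6 ± 3.33% in mOPCs, and the middle 80% of tags spanned 73 and 7 bp. In neither gene is the marked pair a pyrimidine and a purine.

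Thra and Nr2c2 kept their leading promoter with a changed share at the next. P2 of Thra (chr11:98743733-98744733) held 16.4, 13.5 and 13.5% in mESCs and 2.73, 3.24 and 2.91% in mOPCs (usage log2 fold change -1.61, edgeR adjusted p = 4.04e-16), and in levels P1 of Thra was at 8.15 ± 0.22 and 82.2 ± 4.4 CPM. P2 of Nr2c2 (chr6:92091933-92092933) held 4.17, 5.21 and 4.52% in mESCs and 14.8, 13.6 and 12.8% in mOPCs (1.11, adjusted p = 2.49e-14), a shift within a gene whose total was not called. P4 of Rxra (chr2:27739701-27740701) stayed under 10%, with 8.39, 6.79 and 7.22% in mESCs and 0.255, 0.548 and 0.233% in mOPCs (-3.11, adjusted p = 1.34e-17).

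P1 of Rora held 8.19, 10.8 and 12.7% in mESCs and 16.2, 15.2 and 16.7% in mOPCs (usage log2 fold change 0.46, edgeR adjusted p = 0.000665), and the remainder came almost wholly from P4, 635843 bp downstream. This call was lost without mESC library 1 (adjusted p = 0.0624). With windows of 100 bp the order of the promoters turned, P1 holding 74.2% in mESCs and 96.0% in mOPCs. The main starts of P4 lie 192 and 206 bp downstream of its annotated 5′ end, outside the shorter window. The main starts of Rora P1 lay 2 bp apart (chr9:68653739-68653808 in mESCs, plus strand), and Nr2c2 P2 had 1 main start in both lines (chr6:92092324-92092393, plus strand).
Rora P1 in mESCs: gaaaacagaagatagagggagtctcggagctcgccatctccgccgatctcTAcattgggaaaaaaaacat
Nr2c2 P2: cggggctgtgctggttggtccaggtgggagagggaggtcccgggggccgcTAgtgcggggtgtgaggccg
The Rora position held 20.2 ± 3.67% of P1's tags in mESCs, and the Nr2c2 position 15.2 ± 6.72% of P2's tags in mESCs and 18.2 ± 3.62% in mOPCs.

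Other alternative promoters were described without a usage test, or were used in 1 line only. P1 of Nr3c2 held 1.10, 1.38 and 2.64% in mESCs and 9.09, 16.5 and 16.3% in mOPCs, where its level was 0.525 ± 0.14 CPM, and only 1.87% of the mOPC tags with windows of 100 bp. P2 of Nr1h3 held 16.0, 20.8 and 10.9% in mESCs and 1.35, 0.427 and 2.75% in mOPCs, but all tags of its P1 lay in the window of Gm13783. Nr5a2 was measured in mESCs only, with 65.1, 72.2 and 68.0% of tags at P2 and 34.0, 26.97 and 30.9% at P3. Nr2f1 was measured in mOPCs only, with 29.2, 22.8 and 29.0% at P1 and 58.3, 68.4 and 66.1% at P2, or means of 5.03 and 83.4% with windows of 100 bp. For each of these shares in Nr3c2 and Nr1h3 the libraries of the lines did not overlap, with p = 0.1 in the exact permutation test.

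Cofactors, ligand-handling enzymes and known targets of the receptors were read from lists of genes (means ± SD over 3 libraries, every gene named being called by edgeR's test), beside the 42.1% of all tested genes that were higher and the 48.9% that were lower in mOPCs. Of the 17 coregulators, all were tested, 13 were higher, 3 lower and 1 was not called. Nrip1, a corepressor, was at 13.3 ± 1.2 CPM in mESCs and 45.6 ± 3.7 CPM in mOPCs, and the coactivator gene Ncoa2 at 33.7 ± 1.3 and 103 ± 4.0 CPM. Ncor1, the corepressor of unliganded thyroid hormone and retinoic acid receptors, was lower, at 213 ± 4.3 and 100 ± 15 CPM, as was the coactivator gene Ncoa3 at 166 ± 3.2 and 93.3 ± 4.6 CPM. Of the coregulators called, 6 higher and 1 lower reached 2-fold, or 41.2% of those tested, against 67.0% of all genes tested.

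Of the genes that make, carry or break down retinoids, 11 of 14 were tested, 5 were higher and 5 lower. Aldh1a1, an enzyme that makes retinoic acid, had 2 tags in mESCs and 34.3 ± 2.6 CPM in mOPCs, a pooled ratio of 1234 (95% interval 341 to 10197), while Aldh1a2, of the same function, had 2.37 ± 0.15 CPM in mESCs and 0 tags in mOPCs. Cyp26b1, which degrades retinoic acid, rose from 0.201 ± 0.11 to 6.93 ± 0.59 CPM, and Crabp1, which binds it in the cytoplasm, was at 14.0 ± 0.94 CPM in mESCs and 0 tags in mOPCs, at least 425-fold less. Aldh1a2 falls below the 5 CPM set for naming a gene and was named after its values were seen.

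Of the thyroid hormone list, 5 of 8 genes were tested, 2 were higher and 3 lower. Hr (hairless), a corepressor induced by thyroid hormone in brain, rose from 1.85 ± 0.049 to 156 ± 5.7 CPM (log2 fold change 6.36 ± 0.12, edgeR adjusted p = 3.91e-46), or by 4.68 on that scale in the gene body. With windows of 100 bp Hr had 1 tag in mESCs, and its fitted value of 12.25 then depends on the prior count. Klf9, also a known target, fell by 2.43 ± 0.09 on the log2 scale, from 772 ± 70 to 145 ± 7.9 CPM. Both are known as targets of the same hormone. Of the glucocorticoid list, all 8 were tested, 3 were higher and 5 lower. Zbtb16 rose from 0.354 ± 0.15 to 30.1 ± 0.51 CPM (6.25 on the log2 scale, and 4.92 in the gene body) and Per1 from 55.6 ± 3.0 to 77.7 ± 1.4 CPM, while Fkbp5 fell from 160 ± 18 to 29.4 ± 2.6 CPM and Fkbp4, a cochaperone of the receptor, from 73.5 ± 2.5 to 16.8 ± 0.61 CPM.

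Of the 6 liver X receptor targets, 2 were higher and 3 lower. Abca1, a cholesterol exporter, rose from 14.4 ± 0.94 to 76.1 ± 4.0 CPM (2.37 on the log2 scale, and 1.34 in the gene body) and Mylip, which degrades the LDL receptor, from 7.05 ± 1.2 to 28.6 ± 1.6 CPM. Abcg1, also an exporter, was at 11.5 ± 0.98 CPM in mESCs and 0 tags in mOPCs (at least 343-fold less in these windows), and Apoe at 371 ± 34 and 2.11 ± 0.54 CPM. Over the alternative settings the log2 fold change of Abcg1 was -7.40 at its weakest. Of the PPAR targets, 7 of 8 were tested, 4 were higher and 3 lower. Pdk4, which holds back glucose oxidation, was at 22.5 ± 2.8 CPM in mESCs and 0 tags in mOPCs (at least 713-fold less), and Plin2, a lipid droplet protein, at 10.3 ± 0.71 CPM in mESCs and 1 tag in mOPCs.

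Of the clock genes that work with the REV-ERBs and RORs, all 8 were tested, 5 were higher and 2 lower. Per2 rose from 0.317 ± 0.21 to 29.7 ± 0.33 CPM and Per3 from 12.5 ± 0.064 to 122 ± 4.0 CPM (3.26 on the log2 scale, and 4.85 in the gene body), while Arntl was lower, at 9.36 ± 1.2 and 6.11 ± 0.44 CPM. Of 4 nuclear receptor genes that are not on the list of 45, 3 were tested. Esrrb, a pluripotency factor, was at 252 ± 31 CPM in mESCs, above every listed member there, and at 0.355 ± 0.089 CPM in mOPCs. The leading ranks given above therefore hold for the 45 listed genes only.

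**Figure D5:**
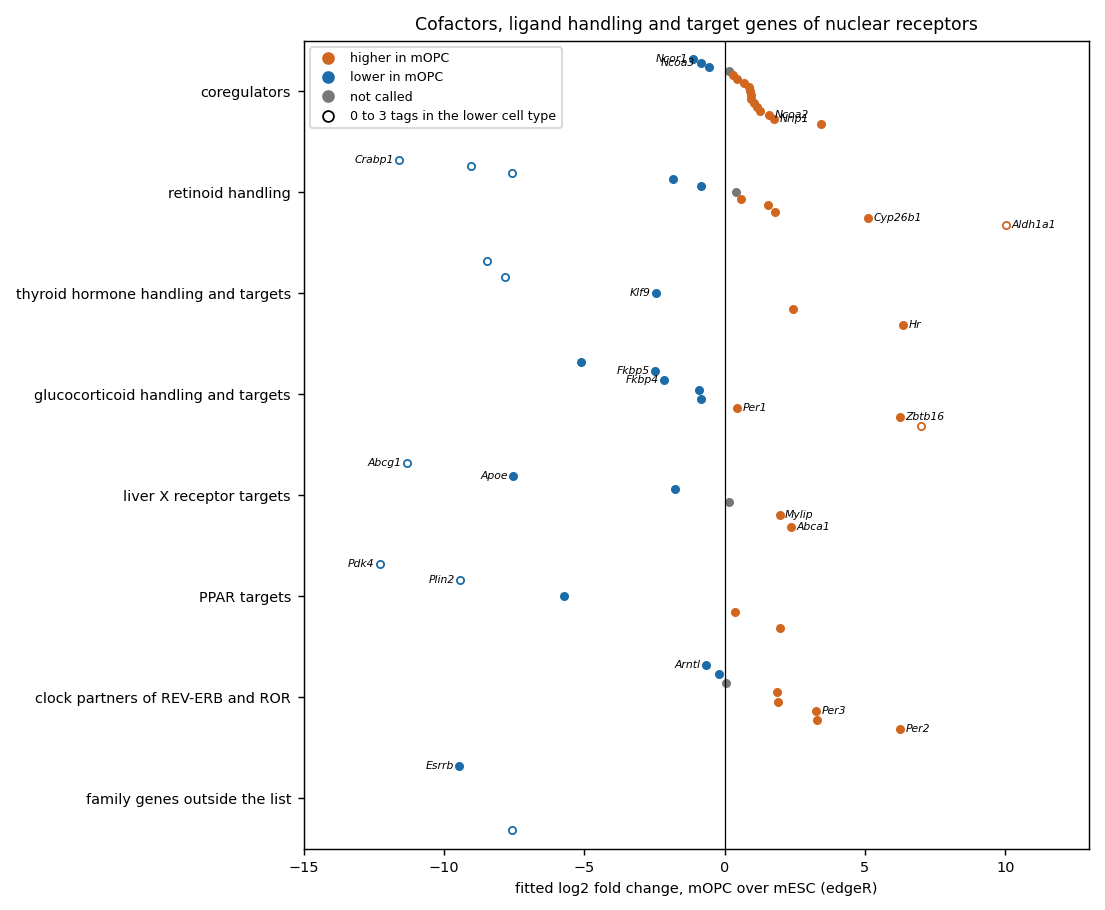
Fitted log2 fold change, mOPCs over mESCs, of the tested genes of the 8 lists, 1 point per gene with 3 genes left out, coloured by call and open where the lower cell type had 0 to 3 tags. Of the 17 coregulators, 13 were called higher and 3 lower in mOPCs, and the thyroid hormone list holds Hr at 6.36 and Klf9 at -2.43.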

How the data were processed

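The deposited values are counts: per the labels and the study's methods, nuclear CAGE tags were aligned to mm10 by the authors and counted at each position and strand where a tag began, without normalization. The methods state tags of 21 to 27 nt and unique alignments, and the submitters' processing notes name BWA 0.5.9 and CASAVA 1.8, while the methods name another aligner. Replicates were not pooled. Raw tags were summed per gene over 500 bp on either side of each annotated 5′ end (GENCODE vM21, mm10) on the gene's strand, and a tag in the windows of several genes was counted in each. CPM is tags per 1e6 of the library's total. Libraries of 16657021 to 40928704 tags set the precision of low values.

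All genes were tested with edgeR 4.0.16 in R 4.3.3 (quasi-likelihood test, robust fit, TMM, filterByExpr, Benjamini-Hochberg adjusted p under 0.05), and promoters of a gene with diffSpliceDGE. The standard error (SE) of a log2 fold change was derived as its absolute value divided by the square root of the F statistic of the quasi-likelihood test. The alternatives were DESeq2 1.42.0, other scalings, no filter, windows of 100 bp, tags of the gene body, positions in the windows of 1 gene only, thinned libraries, a replicate block, and leaving out the libraries in turn. On simulated counts of 17910 genes, 177 of 200 changes of 1 on the log2 scale were recovered with 5 false calls among 182, and on simulated promoters of 3004 genes 163 of 200 genes with 12 false calls among 175. The planted changes were few and balanced in direction, whereas 16832 of 18490 genes were called in the data. These simulations therefore do not show how scaling and false calls behave with changes that widespread. Python 3.11.15, pandas 2.3.3, numpy 2.4.6, scipy 1.17.1 and matplotlib 3.10.9 were used for the rest. Against 0 tags, a fold change is a bound from 3 tags over the pooled libraries (72972385 tags in mESCs, 91692553 in mOPCs), and with 1 to 3 tags a ratio with an exact binomial 95% interval. Both cover counting error only, as tags carry no molecular identifiers.

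The members and lists were chosen with earlier results of these data known. Values of each library are given for members of at least 5 CPM in either line and for called members without overlap. Per list, at most the 2 largest called changes in each direction without overlap and with at least 5 CPM in the higher line were named, except 3 genes that are not reported here. RefSeq promoter windows (GRCm38.p6, 250 bases before to 50 after a start) matched 41 of the 45 members, and main starts were taken where a promoter had at least 15 tags.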

Additional observations from a re-analysis of the deposited data

Results flagged for a closer look

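Tag clusters inside member genes but away from every annotated 5′ end, which the comparisons do not use, reached a mean of at least 5 CPM in 6 cases. In Rarg, a cluster at chr15:102249391-102249642, 7875 bp inside the gene, held 0.290, 0.360 and 0.163 CPM in mESCs and 15.1, 12.8 and 14.9 CPM in mOPCs (mean 14.3 CPM), more than the 7.07 CPM in mOPCs at all its annotated 5′ ends. In Hnf4a, a cluster 3278 bp inside the gene (chr2:163510086-163510212) held 5.83, 7.68 and 6.84 CPM in mESCs (mean 6.79 CPM) and 0 tags in mOPCs, against 1.298 CPM in mESCs at the annotated 5′ ends. In Ppard, a cluster 12178 bp inside the gene (chr17:28244878-28245129) held 10.8, 9.26 and 9.63 CPM in mOPCs (mean 9.90 CPM) and 0.304 CPM in mESCs.

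In Nr5a2, a cluster 7539 bp inside the gene (chr1:136952749-136952909) held 14.8, 15.2 and 15.7 CPM in mESCs (mean 15.3 CPM) and 0 tags in mOPCs. In Rara, a cluster at chr11:98964766-98964913 held a mean of 5.61 CPM in mESCs and 3.22 CPM in mOPCs, and a neighbouring cluster at chr11:98965477-98965747 held 7.53, 4.61 and 6.91 CPM in mOPCs (mean 6.35 CPM) and 0 tags in mESCs. The differences between the lines at these clusters were not tested.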

How the results depend on the processing

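Of the 29 members called, 25 kept direction and call under every alternative that could test them. The others were Nr2f6, Nr3c1, Rara and Rxrg, with the values given above (for Rara 0.068 in the gene body, for Rxrg -0.88 with 100 bp windows and -1.91 in the gene body), and all 26 list genes that met the rule for naming kept theirs. Of the 15 alternatives, only 14 could test Nr1h3 and Rarb and 12 Nr2f2. Positions of 1 gene only leave out every tag of P1 of Nr1h3, so that its call was not checked apart from Gm13783. Without 1 library, the members higher in mOPCs numbered 18 to 20 and those lower 10 to 12, the list genes 34 to 36 and 24 to 26, the members detected 25 to 26 in mESCs and 29 in mOPCs, and the promoters called 14 to 17 in 8 to 10 genes. The median log2 fold change of the members tested, 0.88 with a spread of 0.12 over pairs of libraries, ranged from 0.59 to 0.91 without 1 library, was 0.32 without the filter (45 members), 0.49 with 100 bp windows (32 members) and 0.70 with positions of 1 gene only (33 members). The members tested and their own values both differ there. The family total became 901 CPM in mESCs and 1087 CPM in mOPCs scaled by tags near 5′ ends, 630 and 706 CPM with 100 bp windows, 834 and 1008 CPM in the gene body, and 789 to 792 and 873 to 879 CPM without 1 library. Member promoters called rose to 23 with 100 bp windows, and genes to 13 without the filter, where more promoters were tested. Among members not called, signs turned at values near 0: without the filter Nr1d1 was at 0.077, Nr1h2 at 0.071 and Nr2c2 at 0.081, with 100 bp windows Nr1h2 at 0.0099, Nr2c2 at 0.042 and Nr6a1 at -0.58, in the gene body Nr1h2 at 0.095 and Nr2c2 at 0.032, and Nr6a1 at -0.026 with DESeq2 or its size factors. Without 1 library Nr1d1 ranged from -0.095 to 0.031 and Nr6a1 from -0.035 to 0.075. Without 1 library, some fold changes, taken off the log2 scale, became over 1.5 times larger. They were those of Thrb (log2 6.77 against 6.14) and Per2 (log2 7.17 against 6.24) without mESC library 1. The same held for Nr2e1, Aldh1a1 and Plin2, whose 1 or 2 tags in the lower line lay in the library left out. Ppard was called higher under 7 alternatives, for example with library totals (0.22, adjusted p = 0.0240) and with the replicate block (0.20, adjusted p = 0.0411). The replicate numbers shared by the labels did not pair the libraries (correlations of 0.011, 0.061 and 0.014 between same-numbered libraries, and mESC library 1 correlated best with mOPC library 3). With the replicate block, 20 members were higher and 10 lower, 35 and 25 list genes, and 15 promoters of 8 genes were called, and it changed no other call of a member. Depth limits the 11 members that were not tested, and 0 tags over a line's libraries allow up to 0.0411 CPM in mESCs and 0.0327 CPM in mOPCs. Where the cause of a change with the setting is not given, it was not tested.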
